A study of Mus musculus with 18 samples.

Results

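Chromatin accessibility was examined at 8 interferon-inducible GTPase genes of the mouse, the immunity-related GTPases (IRGs) Irgm1, Irgm2, Igtp and Iigp1 and the guanylate-binding proteins (GBPs) Gbp2, Gbp3, Gbp5 and Gbp7. Every peak of the union peak table that overlapped the body of a member gene or the 25 kb on either side of it was taken, which gave 130 of 194284 peaks. In the GENCODE annotation of build mm9 the genes lie at chr11:48675470-48685185 (Irgm1, minus strand), chr11:58013058-58021093 (Igtp), chr11:58028530-58036282 (Irgm2), chr18:60535683-60552281 (Iigp1), chr3:142159864-142185308 (Gbp5), chr3:142193302-142213047 (Gbp7), chr3:142223016-142236173 (Gbp3) and chr3:142283566-142300972 (Gbp2), on the plus strand except for Irgm1. The 8 genes were selected on earlier results from these same libraries, and the peaks were called in them, so the counts below describe the members and are no independent evidence that such genes respond. The peaks fell into 4 loci, with 71 peaks at the Gbp5, Gbp7, Gbp3 and Gbp2 cluster of chromosome 3, 21 at the neighbouring genes Igtp and Irgm2 and 28 at Irgm1 on chromosome 11, and 10 at Iigp1 on chromosome 18. Because neighbours lie close together, 48 peaks were in the window of more than 1 gene, and loci rather than genes are compared. The authors had classed 23 of the peaks as promoter and 107 as distal, and 55 overlapped the body of a member gene. The members had a median width of 1300 bp against 956 bp over all peaks.

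The cells were bone marrow-derived macrophages (BMDMs), grown in L929-conditioned medium from 12-week-old male Il10-/- mice on the C57BL/6J background, which cannot make the anti-inflammatory cytokine IL-10. All 6 groups carry this deletion, so no wild type macrophages are among them and any IL-10 signal came from added protein. Cells received vehicle, 500 nM (+)-JQ1, an inhibitor that blocks the acetyl-lysine pocket of BET proteins, or 10 ng/mL IL-10 for 12 hours, and then 50 ng/mL lipopolysaccharide (LPS) or PBS for 4 hours, 16 hours in all. There were 3 libraries for each of the unstimulated cells, (+)-JQ1 alone, IL-10 alone, and LPS without a treatment, with (+)-JQ1 or with IL-10, which gives 18 libraries with matched numbers for the 3 mice.

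IRGs and GBPs are large GTPases of cell-autonomous immunity that gather on the vacuoles of intracellular bacteria and parasites and help to break them open. Their genes are among the most strongly induced targets of interferons, whose receptors act through Janus kinases on the transcription factors that bind the interferon-stimulated response element (ISRE) and the gamma-activated site (GAS). Macrophages that sense LPS make type I interferon themselves, so these genes follow LPS as secondary targets, and IL-10 is known to restrain parts of that response through STAT3.

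Stretches of the start regions and of 2 distal peaks are shown before the values. The start regions are the 200 bases before an annotated start in mm9, with the chosen start being one whose window touches no annotated UTR. Where more than 1 start had such a window, the one shown is that with the most motif matches. The windows not shown had 0 matches at Irgm1 (chr11:48685186-48685385, before the outermost start) and Gbp3 (chr3:142223998-142224197) and 1 at Irgm2. The Irgm1 stretch shown lies inside the gene body. The windows of 150 bases were those with the most motif matches in the Gbp7 peak with the largest LPS response and in the Igtp peak that separated the treatments most. Capitals mark matches to the ISRE core GAAANNGAAA, the GAS motif TTCNNNGAA, the AP-1 motif TGANTCA and the kappaB motif GGGANNTTCC on either strand. The Gbp3 stretch lies between peaks and outside the peak whose counts are given for the Gbp3 promoter (chr3:142223305-142224260), so the ISRE cores shown for it are not in the region counted.
Gbp5, chr3:142159664-142159863, plus strand: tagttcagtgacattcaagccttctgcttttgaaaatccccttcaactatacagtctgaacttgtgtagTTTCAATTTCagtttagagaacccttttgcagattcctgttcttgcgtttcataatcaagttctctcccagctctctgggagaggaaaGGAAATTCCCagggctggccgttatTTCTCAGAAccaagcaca
Gbp7, chr3:142193102-142193301, plus strand: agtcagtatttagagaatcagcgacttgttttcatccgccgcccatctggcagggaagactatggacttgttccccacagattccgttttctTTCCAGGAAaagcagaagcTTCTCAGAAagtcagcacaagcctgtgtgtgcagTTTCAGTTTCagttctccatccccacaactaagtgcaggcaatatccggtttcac
Gbp3, chr3:142222816-142223015, plus strand: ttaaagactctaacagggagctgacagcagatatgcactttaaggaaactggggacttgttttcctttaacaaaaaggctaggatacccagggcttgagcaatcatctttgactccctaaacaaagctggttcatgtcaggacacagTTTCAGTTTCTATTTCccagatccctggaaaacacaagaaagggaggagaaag
Irgm1, chr11:48684923-48685122, minus strand: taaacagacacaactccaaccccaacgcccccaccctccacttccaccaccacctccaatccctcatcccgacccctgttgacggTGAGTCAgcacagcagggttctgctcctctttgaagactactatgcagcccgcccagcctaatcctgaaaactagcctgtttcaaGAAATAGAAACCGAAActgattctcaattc
Igtp, chr11:58012858-58013057, plus strand: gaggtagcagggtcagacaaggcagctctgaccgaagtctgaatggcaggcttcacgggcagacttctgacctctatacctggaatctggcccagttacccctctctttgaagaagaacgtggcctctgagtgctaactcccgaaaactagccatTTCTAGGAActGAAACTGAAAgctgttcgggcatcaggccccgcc
Irgm2, chr11:58028330-58028529, plus strand: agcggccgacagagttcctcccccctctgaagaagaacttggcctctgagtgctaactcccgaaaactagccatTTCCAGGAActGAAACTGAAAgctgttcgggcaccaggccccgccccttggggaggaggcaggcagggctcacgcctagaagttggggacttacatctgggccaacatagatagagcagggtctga
Gbp7 distal, chr3:142187227-142187376, plus strand: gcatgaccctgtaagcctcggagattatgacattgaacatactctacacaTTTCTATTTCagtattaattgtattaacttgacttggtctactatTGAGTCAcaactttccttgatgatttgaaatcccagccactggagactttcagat
Igtp distal, chr11:58007096-58007245, plus strand: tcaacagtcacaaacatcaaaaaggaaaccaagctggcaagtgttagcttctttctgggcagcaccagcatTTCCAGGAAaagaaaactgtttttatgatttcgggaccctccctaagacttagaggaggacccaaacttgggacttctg

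An ISRE core lay within 200 bases before an annotated start in 8 of the 8 genes, compared with 5.81% of 22367 protein-coding genes. The GAS motif was found there in 5 members (11.4% of genes), the AP-1 motif in 3 (10.7%) and the kappaB motif in Gbp5 alone (2.12%), and the PU.1 motif GAGGAAGT in 0 (4.19%). The Igtp and Irgm2 windows shared an unbroken run of 38 bases that ends inside their GAS motif, whereas the longest run shared by the Gbp7 and Gbp3 windows was 13 bases. Over the central 500 bases of the 130 peaks the ISRE core was present in 15.4%, against 7.19% of all peaks. The shares there were 15.4% and 14.3% for GAS, 20.8% and 18.1% for AP-1, 1.54% and 2.01% for kappaB and 7.69% and 6.54% for PU.1. Matches were counted on both strands, a window with several matches to a motif was counted once, and matches of different motifs may overlap. The IRG and GBP families hold near-identical copies, and uniquely mapped reads were kept by the authors, so the counts of stretches shared between copies are uncertain.

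The total count in peaks lay between 12020526 and 25908198 per library. The scaling factors of edgeR's trimmed mean method were 1.24, 1.15 and 1.04 in the unstimulated libraries and lay between 0.896 and 1.05 in the other 15, and scaling by total counts instead moved the median over all peaks (log2 scale) from -0.03 to -0.26 with LPS, from -0.09 to -0.37 with (+)-JQ1 alone and from -0.05 to -0.26 with IL-10 alone. Promoter peaks were present for 6 of 8 macrophage marker symbols, with a summed count of 1410 to 2910 per library. The other 2 symbols (Adgre1 and Spi1) were not matched in the annotation, and synonyms were not merged. Of 4 T cell markers 1 (Lck) had a promoter peak, and the Cd3 genes had none. Promoter peaks were also present for 3 of 4 B cell, 3 of 4 granulocyte, 2 of 3 fibroblast and 2 of 2 epithelial markers, with sums of 192 to 333, 514 to 993, 585 to 821 and 83.1 to 150, and their part in the results was not tested. The sums cover unequal numbers of markers. Mean counts per marker were 236 to 486 for macrophage, 181 to 453 for T cell and 292 to 411 for fibroblast markers. For B cell, granulocyte and epithelial markers they were 64.0 to 111, 171 to 331 and 41.5 to 75.1. Replicate 1 of every group was sequenced in lane 5 and replicate 3 in lane 6, while replicate 2 was in lane 5 without LPS and in lane 6 with it.

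LPS for 4 hours raised accessibility over most of the 130 peaks, at promoters and at distal peaks alike. A peak was called a differentially accessible region (DAR) at an FDR under 0.05 and an absolute log2 fold-change above 0.5 in edgeR's quasi-likelihood fit, adjusted over 194230 tested peaks, all 130 members among them. With LPS, 99 members were higher and 0 lower, where 11.7% of all peaks were higher and 10.2% lower. The fold-change was above 0 for 126 members, the median was 1.18 on the log2 scale against -0.03 for all peaks, and the values ranged from -0.22 to 4.80. The higher peaks were 56 of 71 at the Gbp cluster, 17 of 21 at Igtp and Irgm2, 18 of 28 at Irgm1 and 8 of 10 at Iigp1, with median log2 fold-changes of 1.40, 1.02, 0.82 and 1.85. In these bulk libraries, more cells with an open region and a wider opening per cell cannot be told apart.

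The promoter peaks of the 8 genes were all DARs with LPS. Values are normalized counts, the reads in a peak scaled to a common library size, and are not compared between genes because the peaks differ in width. Gbp2, a lipid-modified GBP that coats pathogen vacuoles, had 226, 313 and 287 counts in unstimulated cells and 1202, 1139 and 1187 with LPS at its start. That is a log2 fold-change of 2.09 ± 0.14 (SE, n = 3), the largest of the 8, and the groups were far apart. Gbp5, which promotes inflammasome activation, rose from 161, 252 and 267 to 816, 863 and 858 (1.89 ± 0.15). Gbp7 started from 223, 298 and 432 and reached 763, 680 and 778 (1.21 ± 0.15), and Gbp3 from 244, 295 and 354 reached 670, 657 and 648 (1.14 ± 0.14). Unstimulated replicate 1 was the lowest unstimulated library at each of these 4 GBP promoters, and also at those of Irgm1, Igtp and Irgm2 below. It had the lowest total count and the highest scaling factor (1.24) of all libraries. No unstimulated library reached an LPS library at the 4 GBP promoters.

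Among the IRGs, Irgm1, Irgm2 and Igtp encode regulatory proteins that hold the effector IRGs inactive on the cell's own membranes, and Iigp1 encodes an effector that loads onto parasite vacuoles. The Irgm1 promoter had 350, 420 and 444 counts without stimulation and 1108, 1073 and 1052 with LPS (1.41 ± 0.13). For Igtp the counts went from 200, 270 and 289 to 510, 510 and 462 (0.96 ± 0.14), and for Irgm2 from 338, 370 and 403 to 659, 671 and 646 (0.83 ± 0.14). Under loess offsets the Irgm2 value was 0.47 and fell under the size threshold, while the other 7 promoter peaks remained DARs under every alternative that gave a value. The Iigp1 promoter had 63.3, 41.8 and 47.8 counts, and LPS took it to 130, 168 and 226 (1.78 ± 0.23). Each of its LPS libraries was above every unstimulated library.

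**Figure D1:**
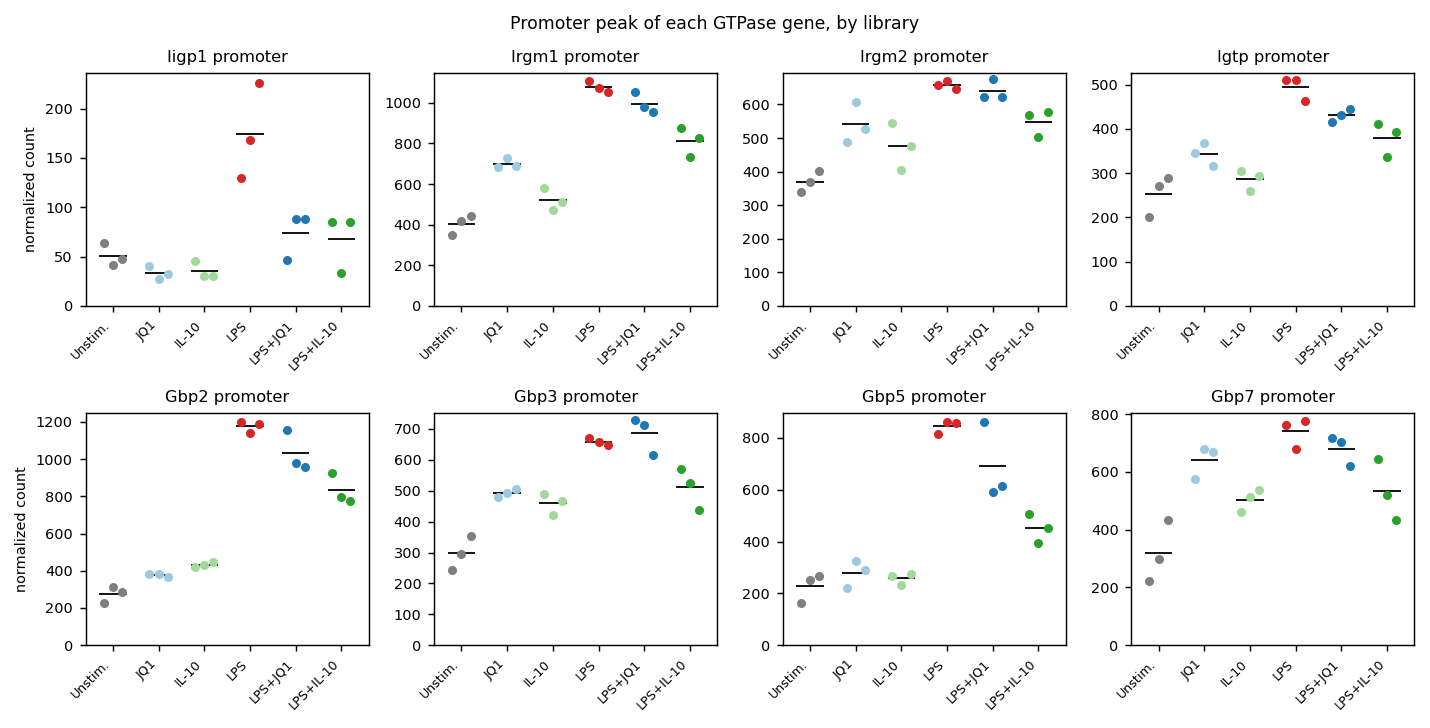
Normalized counts (vertical axis, linear from 0) of the promoter peak of each of the 8 genes in the 6 groups (horizontal axis), with 1 point for each of the 3 libraries and a line at the group mean. LPS libraries were above the unstimulated ones in all 8 panels, and with (+)-JQ1 or IL-10 added the Iigp1 counts fell to between 33.3 and 88.1.

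The largest rises were at distal peaks of the Gbp cluster. An intergenic peak 5.7 kb before the Gbp7 start (chr3:142187181-142187943), between Gbp5 and Gbp7, the one whose ISRE core and AP-1 motif are shown above, had 28.5, 22.4 and 11.2 counts without stimulation and 653, 520 and 531 with LPS, a log2 fold-change of 4.80 ± 0.22. Its unstimulated and LPS libraries were 27.4-fold apart on average, the largest log2 fold-change of the members. Within lane 5 (replicate 1) it went from 28.5 to 653 and within lane 6 (replicate 3) from 11.2 to 531. A peak over an exon and UTR near the end of Gbp5, 8.8 kb before the Gbp7 start, rose from 17.4, 11.2 and 17.3 to 226, 195 and 177 (3.71 ± 0.24), and an intergenic peak 19.0 kb after the Gbp2 start rose from 19.9, 23.4 and 19.3 to 264, 207 and 291 (3.59 ± 0.23). All 3 peaks were nearly closed in every unstimulated library.

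Each IRG locus also had distal peaks with a larger log2 fold-change than its promoter. The peak just past the end of Iigp1, 17.5 kb after its start (chr18:60552428-60554017), had 47.2, 18.3 and 18.3 counts without and 227, 200 and 251 with LPS (3.05 ± 0.25). At Irgm1, a peak at the end of the gene, 10.2 kb after the start, rose from 23.6, 27.5 and 17.3 to 137, 171 and 153 (2.75 ± 0.25), and one within the gene, 6.9 kb after the start, from 168, 147 and 101 to 819, 884 and 894 (2.65 ± 0.16). No unstimulated library of these peaks reached an LPS library. At the Igtp and Irgm2 locus, an intergenic peak 6.0 kb before Igtp (chr11:58005103-58009073) rose from 102, 81.5 and 89.4 to 428, 425 and 445 (2.25 ± 0.16), and one 4.7 kb before Irgm2 rose from 108, 114 and 92.5 to 431, 403 and 408 (1.98 ± 0.16). A peak 10.1 kb before Igtp, in an exon of the related gene Gm12250, rose from 90.6, 57.1 and 41.7 to 211, 175 and 220 (1.70 ± 0.20). An internal peak of Iigp1, 5.8 kb after the start and in the authors' promoter class, went from a mean of 105 ± 22.3 to 399 ± 53.1 (SD, n = 3), and one 10.8 kb before Irgm1 from 137 ± 13.4 to 367 ± 43.3.

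**Figure D2:**
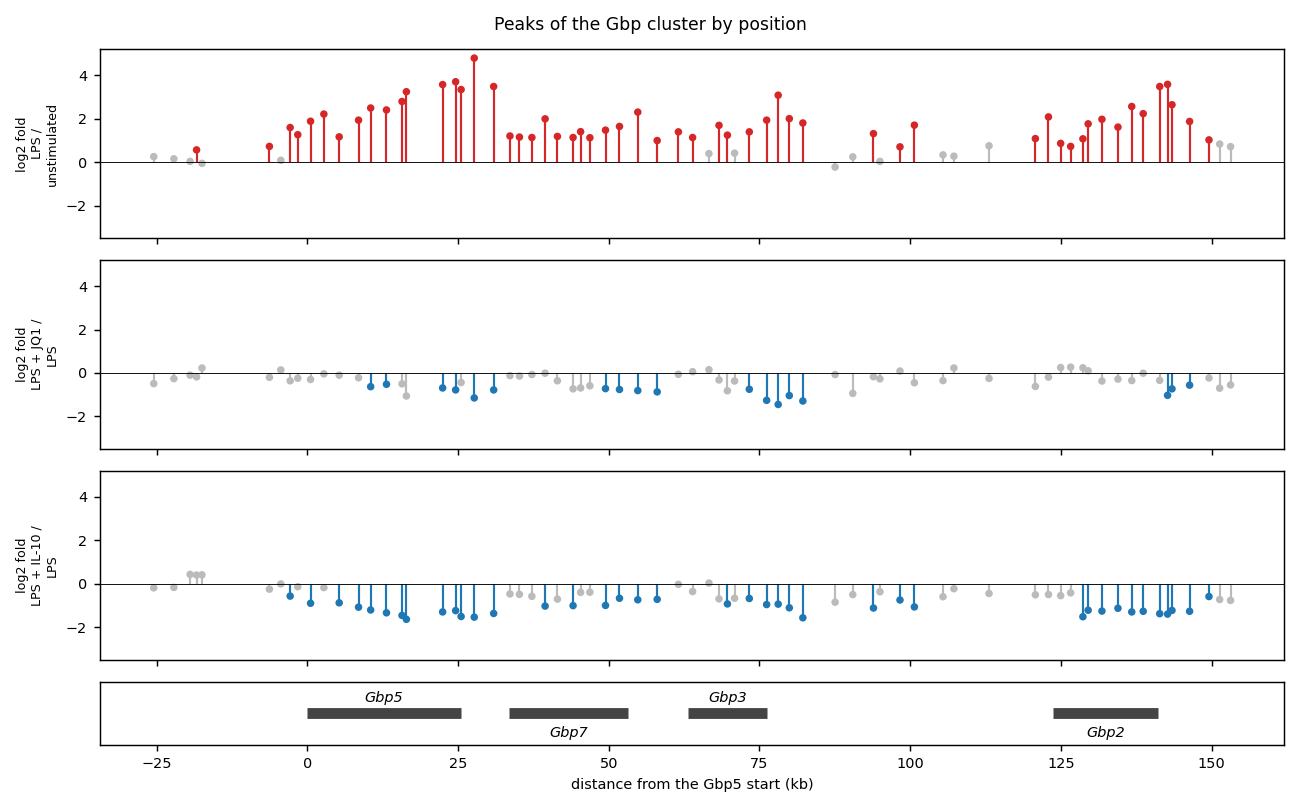
Log2 fold-change of each of the 71 peaks of the Gbp cluster (vertical axes) against its distance from the Gbp5 start in kb (horizontal axis), for LPS against unstimulated cells (top), LPS with (+)-JQ1 against LPS (next) and LPS with IL-10 against LPS (below it), with the gene bodies below. Red marks higher DARs, blue lower DARs and grey other peaks, and there were 56 higher DARs in the top panel, 18 lower DARs with (+)-JQ1 and 39 with IL-10.

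(+)-JQ1 before LPS lowered a part of this accessibility. Called lower were 36.4% of the distal members and 26.1% of those in the promoter class, against 3.55% and 3.22% of all such peaks. In LPS with (+)-JQ1 against LPS, 45 members were lower and 0 higher, where 3.49% of all peaks were lower and 1.74% higher, and the median log2 fold-change was -0.48 against -0.00. The number of lower peaks was 27 without replicate 2 and 28 without replicate 3, and 46 without replicate 1. Lower peaks were 9 of 10 at Iigp1, 10 of 21 at Igtp and Irgm2, 8 of 28 at Irgm1 and 18 of 71 at the Gbp cluster, where the count fell to 8 without replicate 2 and 7 without replicate 3, and the count at Igtp and Irgm2 fell to 6 without replicate 2. Of the 47 distal peaks of the 3 IRG loci 23 were lower, with a median of -0.73, and of the 60 distal peaks of the Gbp cluster 16, with a median of -0.37. Of the 23 peaks in the authors' promoter class 6 were lower (3.22% of all promoter peaks were), with a median of -0.12 and values from -1.26 to 0.27. The 6 were the start and the internal peak of Iigp1, the peak in the exon of Gm12250, one 16.3 kb after the Irgm2 start (-0.64) and 2 at exons and UTRs of Gbp7, 13.7 and 11.4 kb before the Gbp3 start (-0.72 and -0.76). This comparison and those of LPS with IL-10 use the same LPS libraries, and their values are set side by side without a test of likeness.

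IL-10 before LPS also lowered members and raised none, and it was the Gbp cluster that held most of them. In LPS with IL-10 against LPS, 56 members were lower and 0 higher, where 4.51% of all peaks were lower and 4.26% higher, and the median log2 fold-change was -0.60 against -0.01. Lower peaks were 39 of 71 at the Gbp cluster, 8 of 10 at Iigp1, 4 of 21 at Igtp and Irgm2 and 5 of 28 at Irgm1. Without replicate 2 the count at Igtp and Irgm2 was 1, and at Irgm1 it was 3 without replicate 2 and 3 without replicate 3. The median log2 fold-changes of these loci were -0.74, -1.55, -0.39 and -0.30, compared with -0.35, -1.53, -0.64 and -0.43 for (+)-JQ1. The summed count of the 71 Gbp peaks was 13087, 13158 and 13227 with LPS, 11668, 9563 and 9221 with LPS and (+)-JQ1, and 8749, 7112 and 7221 with LPS and IL-10. Replicate 1 of both treated groups stood above the other 2, and the means were 0.772 and 0.585 of the LPS mean.

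At the starts of the 8 genes (+)-JQ1 gave a lower DAR at Iigp1 alone. It had 47.0, 88.1 and 87.7 counts in LPS with (+)-JQ1 and 84.8, 33.3 and 85.2 in LPS with IL-10, log2 fold-changes against LPS of -1.19 ± 0.21 (adjusted p = 2.4e-05) and -1.34 ± 0.21 (adjusted p = 1.1e-06). All 6 treated libraries were below the lowest LPS library. The Gbp5 promoter had 508, 395 and 451 counts in LPS with IL-10 and fell by 0.90 on the log2 scale (SE 0.14, adjusted p = 8.4e-07). In LPS with (+)-JQ1 it had 863, 593 and 616, where replicate 1 lay at the LPS level (-0.30 ± 0.14, adjusted p = 0.24), and without replicate 1 the value was -0.51 and past the threshold. At the promoters of Irgm1, Igtp, Irgm2, Gbp7, Gbp3 and Gbp2 the log2 fold-changes with (+)-JQ1 were -0.12, -0.20, -0.04, -0.12, 0.06 and -0.19, with SEs of 0.13 or 0.14 and no DAR, and the Gbp3 value was -0.03 under loess offsets. With IL-10 they were -0.41, -0.38, -0.26, -0.47, -0.36 and -0.50. The Gbp2 promoter, with 925, 796 and 775 counts in LPS with IL-10 against at least 1139 with LPS, had an adjusted p of 0.0049 and a size at the threshold, and it was a DAR with the replicate block (-0.50, adjusted p = 0.0081) and without replicate 1 (-0.56). The Gbp7 promoter was a DAR without replicate 1 (-0.61).

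Distal peaks of the IRG loci gave the largest falls with (+)-JQ1. The peak 17.5 kb after the Iigp1 start had 34.2, 16.2 and 30.2 counts in LPS with (+)-JQ1, a log2 fold-change of -3.08 ± 0.25 (adjusted p = 1.3e-18), and 56.5, 46.2 and 57.9 in LPS with IL-10 (-2.07 ± 0.22, adjusted p = 2.3e-12). With either treatment it overlapped the unstimulated libraries, and the LPS libraries stood apart. The peak 6.0 kb before Igtp, whose GAS motif is shown above, had 65.5, 113 and 109 counts with (+)-JQ1 (-2.14 ± 0.16, adjusted p = 1.6e-20) and 299, 220 and 297 with IL-10 (-0.66 ± 0.14, adjusted p = 0.00042). It overlapped the unstimulated libraries with (+)-JQ1 and stayed above all of them with IL-10, and the IL-10 value was -0.55 and no longer a DAR without replicate 2. The peak 10.2 kb after the Irgm1 start had 35.6, 43.5 and 37.4 counts with (+)-JQ1 (-1.98 ± 0.23) and 109, 48.3 and 77.5 with IL-10 (-0.96 ± 0.21, and -0.64 and no DAR without replicate 2). The peak 10.8 kb before Irgm1 had 105, 118 and 145 with (+)-JQ1 (-1.56 ± 0.15) and 268, 232 and 217 with IL-10 (-0.62 ± 0.14, and -0.45 and no DAR without replicate 3). At both Irgm1 peaks the (+)-JQ1 libraries were all below the IL-10 libraries. The peak 6.9 kb after the Irgm1 start fell by 1.33 with (+)-JQ1 and by 0.85 with IL-10 on the log2 scale, with SEs of 0.14. The peak 4.7 kb before Irgm2 fell by 0.98 and by 0.59, and the second of these was -0.46 without replicate 2 and no DAR.

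**Figure D3:**
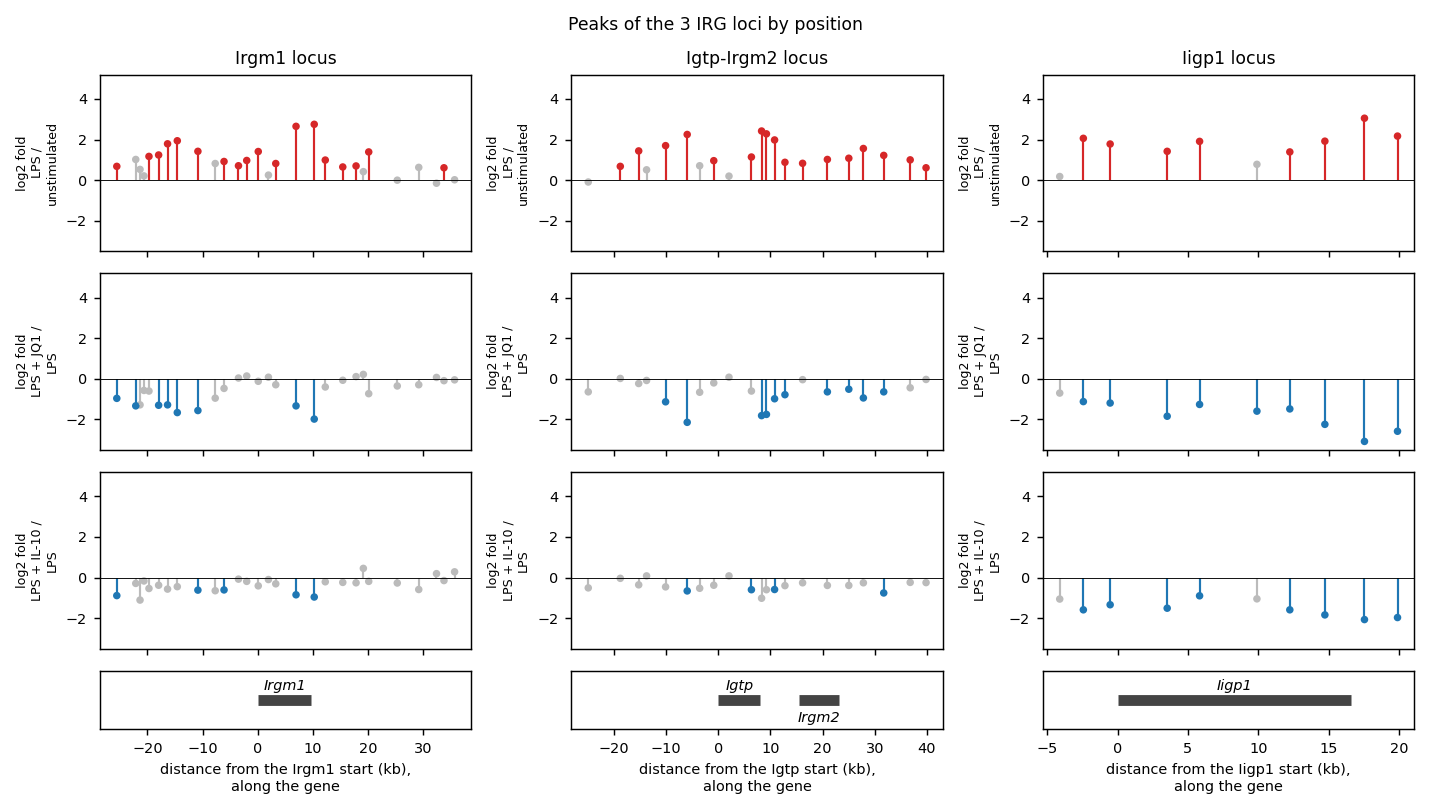
Log2 fold-change of the peaks of the Irgm1, Igtp-Irgm2 and Iigp1 loci (columns) against distance from the Irgm1, Igtp or Iigp1 start in kb, read along the gene, for LPS against unstimulated cells (top row), LPS with (+)-JQ1 against LPS (next row) and LPS with IL-10 against LPS (the row below it), with gene bodies below. Red marks higher DARs, blue lower DARs and grey other peaks, and 27 of the 59 peaks were lower with (+)-JQ1 and 17 with IL-10.

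At the Gbp cluster the peaks with the largest LPS responses were lower with either agent. The peak 5.7 kb before Gbp7 had 349, 182 and 244 counts in LPS with (+)-JQ1 (-1.15 ± 0.16, adjusted p = 3.5e-08) and 270, 158 and 158 with IL-10 (-1.54 ± 0.16, adjusted p = 9.2e-13), and the treated groups overlapped. The peak 19.0 kb after the Gbp2 start had 102, 144 and 124 and 98.0, 75.2 and 113 counts (-1.03 ± 0.18 and -1.40 ± 0.18). Both peaks stayed many times above their unstimulated level with either treatment. At the peak 8.8 kb before Gbp7 the values were -0.78 ± 0.18 and -1.24 ± 0.19, and the first was -0.77 without replicate 2 and -0.73 without replicate 3, each no longer a DAR. The peak at the end of Gbp3, 13.0 kb after its start, went from 167, 164 and 173 counts with LPS to 66.9, 73.9 and 68.3 with (+)-JQ1 (-1.26 ± 0.19) and to 77.2, 83.8 and 96.3 with IL-10 (-0.96 ± 0.19). The (+)-JQ1 libraries were below the IL-10 libraries there, but the direct comparison called no DAR (-0.30 ± 0.20, adjusted p = 0.41).

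In contrast, 3 peaks within Gbp2 and upstream of it were lower DARs with IL-10 and not with (+)-JQ1. An exonic peak 15.0 kb after the Gbp2 start had 85.2, 115 and 116 counts with LPS, 120, 85.0 and 109 with (+)-JQ1 added and 48.0, 50.5 and 33.2 with IL-10 added. The groups with and without (+)-JQ1 overlapped (-0.01 ± 0.21), and every IL-10 library was below them (-1.27 ± 0.22, adjusted p = 1.3e-05). An intronic peak 8.1 kb after the Gbp2 start had 284, 300 and 280 counts with LPS, 249, 195 and 225 with (+)-JQ1 (-0.37 ± 0.15, adjusted p = 0.15) and 129, 111 and 120 with IL-10 (-1.26 ± 0.16, adjusted p = 9.9e-10). There each (+)-JQ1 library was below every LPS library and above every IL-10 library, although the fall with (+)-JQ1 missed the call. An intergenic peak 29.8 kb before the Gbp2 start, in the window of Gbp3, had 372, 350 and 340 counts with LPS, 248, 371 and 317 with (+)-JQ1 (-0.17 ± 0.14) and 179, 155 and 154 with IL-10 (-1.12 ± 0.15). Its IL-10 libraries overlapped the unstimulated ones, which had 102, 150 and 171.

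**Figure D4:**
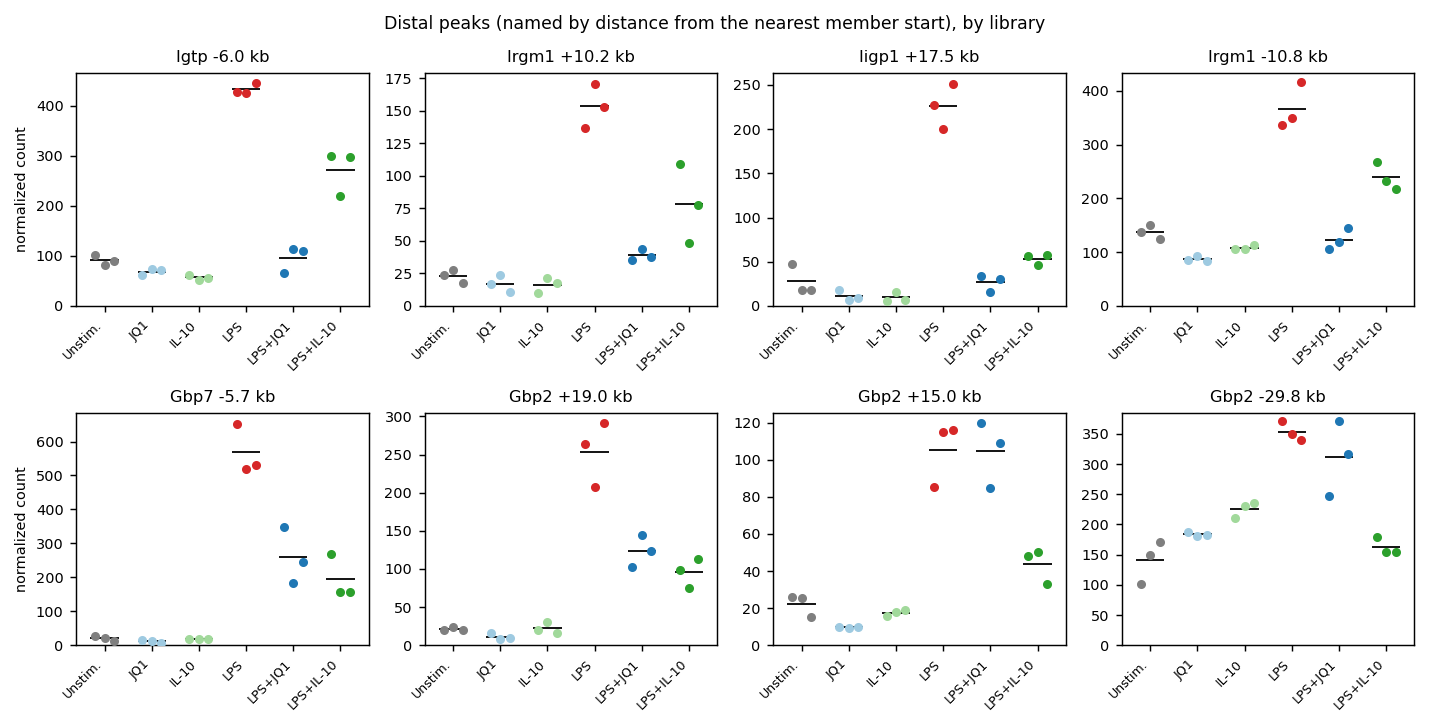
Normalized counts (vertical axis, linear from 0) of 8 distal peaks in the 6 groups, with 1 point for each of the 3 libraries and a line at the group mean, each peak named by its distance in kb from the nearest member start. The top row holds the named IRG peaks with the lowest values of LPS with (+)-JQ1 against LPS with IL-10. The last 2 panels hold the named Gbp peaks with the highest. By this choice, the (+)-JQ1 points with LPS lay below the IL-10 points in the top row and above them at the last 2 Gbp2 peaks.

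The direct comparison of the treated groups, LPS with (+)-JQ1 against LPS with IL-10, gave DARs of mostly opposite direction at the Gbp cluster and the 3 IRG loci. Over all 130 members 20 were higher and 10 lower, where 3.43% of all peaks were higher and 4.68% lower. All 20 higher peaks were in the Gbp cluster, which had 1 lower peak, and the IRG loci had 0 higher and 9 lower (4 at Igtp and Irgm2, 4 at Irgm1 and 1 at Iigp1). The medians were 0.35 at the Gbp cluster, -0.13 at Igtp and Irgm2, -0.15 at Irgm1 and -0.34 at Iigp1. The starts of the genes did not show this split. Of the 9 peaks at a start of a member gene 8 were above 0, with a median of 0.29 and values from -0.03 to 0.61. Of these 1 was a higher DAR and 0 were lower. No IRG peak was higher under any of the 12 alternatives counted by locus, and the Gbp cluster had 12 to 22 higher peaks and 0 or 1 lower. The lower peaks of the IRG loci numbered 5 without replicate 1 and 5 without replicate 2, and the higher peaks of the Gbp cluster 12 without replicate 2. Among the named peaks the higher ones were those 15.0 kb after (1.25 ± 0.23, adjusted p = 2e-05), 8.1 kb after (0.89 ± 0.16, adjusted p = 2.4e-05) and 29.8 kb before the Gbp2 start (0.95 ± 0.15, adjusted p = 8.1e-07) and the Gbp5 promoter (0.61 ± 0.14, adjusted p = 0.0018, but 0.45 and no DAR under loess offsets and 0.62 and no DAR without replicate 2). The peak 4.9 kb after the Gbp2 start, chosen after its value was seen, had the largest difference (1.75 ± 0.29), with 92.5, 74.9 and 50.3 counts with (+)-JQ1 and 22.6, 14.0 and 25.6 with IL-10.

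The lower peaks of that comparison were led by the one 6.0 kb before Igtp (-1.47 ± 0.16, adjusted p = 3.3e-12). Next came the peaks 10.2 kb after (-1.02 ± 0.24, adjusted p = 0.0019) and 10.8 kb before the Irgm1 start (-0.94 ± 0.15, adjusted p = 1.9e-06), the one 17.5 kb after the Iigp1 start (-1.01 ± 0.27, adjusted p = 0.0072) and the one 10.1 kb before Igtp (-0.66 ± 0.19, adjusted p = 0.015). The first of the Irgm1 values was -0.67 and no DAR without replicate 1. The Iigp1 value was no DAR without replicate 2 (-0.85) or 3 (-1.09) or in DESeq2 (-1.01), and the last Igtp value was no DAR without replicate 2 or 3 (-0.52 in both) or in DESeq2 (-0.66).

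**Figure D5:**
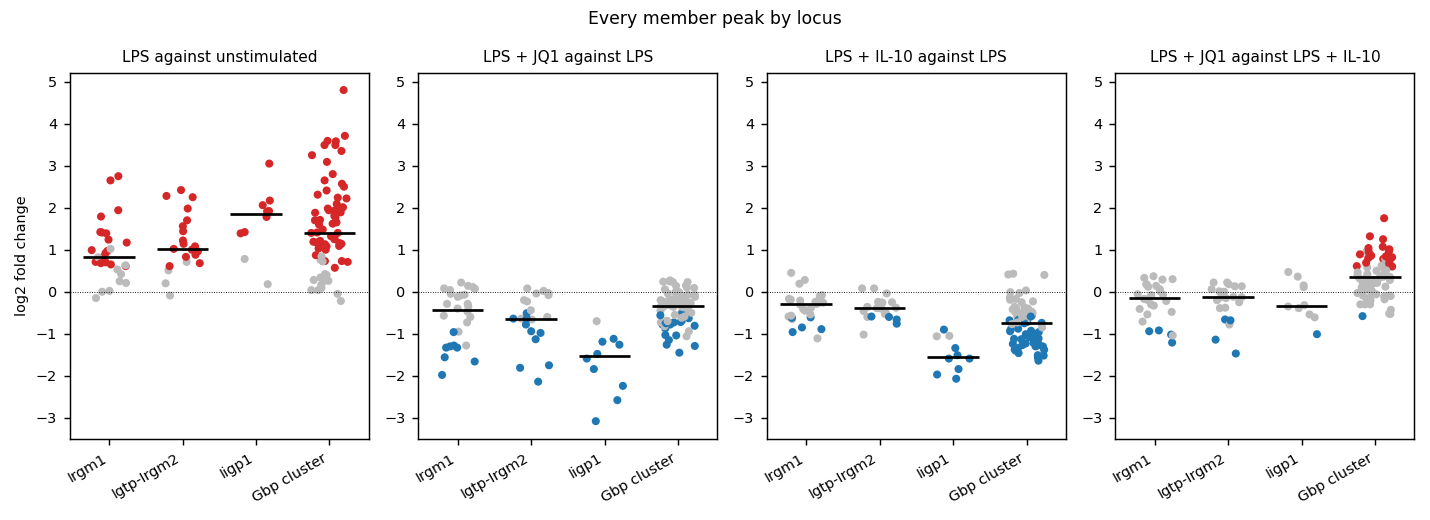
Log2 fold-change (vertical axis) of every member peak, grouped by locus, in 4 comparisons, with a line at the median of each locus. Red marks higher DARs, blue lower DARs and grey other peaks, and in the right panel the 20 higher DARs were all in the Gbp cluster and 9 of the 10 lower ones at the other 3 loci.

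Without LPS, both agents changed fewer members. (+)-JQ1 alone raised 5 members and lowered 17, where 7.85% of all peaks were higher and 3.15% lower, and all 17 lower members were distal. The count of lower members was 4 without replicate 1 and 1 without replicate 2, and that of higher members 3 without replicate 2 and 10 without replicate 3. IL-10 alone raised 7 and lowered 17, where 5.16% of all peaks were higher and 3.50% lower. Here the lower members were 4 without replicate 1 and 2 without replicate 2, and the higher members 4 without replicate 1 and 1 without replicate 2. The peak 17.5 kb after the Iigp1 start went from 47.2, 18.3 and 18.3 counts to 17.7, 6.49 and 8.72 with (+)-JQ1 (-1.28 ± 0.36, adjusted p = 0.0083) and to 5.47, 16.2 and 6.97 with IL-10 (-1.49 ± 0.36, adjusted p = 0.0028). Unstimulated replicate 1 stood above the others there, and without replicate 1 the values were -1.22 and -0.64 and no DARs, as was the (+)-JQ1 value without replicate 2 (-1.29). With (+)-JQ1 alone the peaks 15.0 kb after the Gbp2 start and 5.5 kb after the Irgm2 start fell by 1.19 and 1.04 on the log2 scale, and neither was a DAR without replicate 1 or without replicate 2. With IL-10 alone the peaks 13.0 kb after the Gbp3 start and 8.1 kb after the Gbp2 start fell by 0.87 and 0.78, and these too were no DARs without replicate 1 (-0.69 and -0.59) or without replicate 2 (-1.09 and -0.73), and the first was none without replicate 3 (-0.84).

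The members that rose with (+)-JQ1 alone were all in the authors' promoter class, as were 4 of the 7 that rose with IL-10 alone, and their rise depended on the scaling. With (+)-JQ1 alone the Gbp7 promoter had 575, 678 and 668 counts against 223, 298 and 432 (1.00 ± 0.15), the Irgm1 promoter 682, 727 and 690 against 350, 420 and 444 (0.79 ± 0.14), and the Gbp3 and Irgm2 promoters rose by 0.72 and 0.54. With IL-10 alone the Gbp7, Gbp3 and Gbp2 promoters rose by 0.66, 0.62 and 0.65, and the peaks 8.8 kb before Gbp7 and 29.8 kb before Gbp2 by 1.17 and 0.67. Without replicate 2 the Irgm2 value with (+)-JQ1 and the IL-10 values of the Gbp7 and Gbp3 promoters and of both distal peaks were no DARs, and without replicate 1 that of the Gbp3 promoter was none. Among all promoter peaks 22.9% rose with (+)-JQ1 alone and 8.72% with IL-10 alone. Unstimulated replicates 1 and 2 had the highest scaling factors (1.24 and 1.15), and replicate 3 had 1.04. Under loess offsets 0 members rose with (+)-JQ1 alone, the Gbp7, Irgm1, Gbp3 and Irgm2 values being 0.47, 0.15, 0.21 and -0.00, and 1 rose with IL-10 alone. With total counts 2 and 1 rose.

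Whether LPS changed these peaks less in treated than in untreated cells was tested by the interactions, which include those baseline values. For LPS and (+)-JQ1 19 members were lower and 0 higher, where 3.19% of all peaks were lower and 0.649% higher. For LPS and IL-10 22 were lower and 0 higher, where 5.90% of all peaks were lower and 2.01% higher. The lower counts were 16 at the Gbp cluster for IL-10 and 7 for (+)-JQ1, and 12 for (+)-JQ1 and 6 for IL-10 over the other loci. The (+)-JQ1 count was 7 without replicate 1 and 1 without replicate 2, and the IL-10 count was 11 without replicate 2, all at the Gbp cluster. At the peak 6.0 kb before Igtp the interaction was -1.73 ± 0.25 for (+)-JQ1 (adjusted p = 3.1e-06) and 0.00 for IL-10, and at the peak 29.8 kb before Gbp2 it was -0.55 ± 0.21 (adjusted p = 0.14) and -1.79 ± 0.21 (adjusted p = 2.4e-09). Both of the called values were DARs under every alternative run.

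At the edge of the 25 kb windows the response did not stop at a common distance. The peaks just inside, 24.8 kb before Gbp5, 24.7 kb before Igtp and 24.9 and 24.3 kb from the body of Irgm1, had LPS log2 fold-changes of 0.26 ± 0.30, -0.09 ± 0.53, 0.02 ± 0.20 and 0.68 ± 0.23. The peaks just outside, at 26.3, 26.4, 27.4 and 26.9 kb, had 0.78 ± 0.17, 0.80 ± 0.41, 1.07 ± 0.14 and 0.40 ± 0.24. Beyond Iigp1 the next peak lay 45.9 kb from the gene and had 1.65, with -1.11 for (+)-JQ1 and -1.03 for IL-10 against LPS. On the remaining sides the first peaks outside lay 58.1 kb before Iigp1 (0.21 ± 0.32), 51.7 kb past Irgm2 (-0.23 ± 0.33) and 36.0 kb past Gbp2 (0.96 ± 0.23). These are descriptions of where the windows end.

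Other genes of the families moved in the same comparisons. Of 21 further IRG and GBP gene symbols, 18 were in the annotation and 16 had a promoter peak. Synonyms were not merged, so a symbol without a match (Gbp2b, Mpa2l and Irgb10) need not be a gene that was not measured. Of the 16 promoter peaks 11 rose with LPS and 0 fell. With (+)-JQ1 6 were lower and with IL-10 8, and 1 (Gbp11) was higher with IL-10. The promoter peaks of Gbp1 and Gm12250 are themselves members. Over all promoter peaks 14.3% rose with LPS, 3.22% were lower with (+)-JQ1 and 3.94% with IL-10. Gbp6 rose by 2.69 on the log2 scale and fell by 0.93 with (+)-JQ1 and 0.54 with IL-10, and Gm4951, a further IRG, rose by 1.70 and fell by 0.69 and 0.71. The 162 peaks around these genes that lay outside the member windows had 88 higher with LPS, 62 lower with (+)-JQ1 and 46 lower with IL-10, with medians of 0.88, -0.56 and -0.48. In the direct comparison of LPS with (+)-JQ1 against LPS with IL-10, 3 of these 162 peaks were higher and 20 lower, with a median of -0.18. The 162 peaks lie around IRG and GBP genes together. Among the promoters of GBP genes outside the member windows, that of Gbp8 was a higher DAR (0.53). Those of Gbp10, Gbp9 and Gbp4 had 0.34, 0.31 and 0.17, those of Gbp6 and Gbp11 had -0.40 and -0.33, and these were no DARs. These GBP promoters thus went both ways. Whether the higher peaks of the Gbp cluster in that comparison extend to other GBP genes was not tested. Of 16 promoters of interferon signalling genes 10 rose with LPS, among them Socs3 (1.99), Irf7 (1.21), Stat2 (1.06), Socs1 (1.05), Irf1 (0.95) and Irf9 (0.93), while 0 were lower with (+)-JQ1 and 2 with IL-10. Of 13 promoters of vacuole partners, proteins that act with or downstream of the GTPases, 4 rose (the DNA sensor Aim2 by 1.15, Trim21 by 0.90, Casp4, the receptor of cytosolic LPS, by 0.89 and Traf6 by 0.54), 0 were lower with (+)-JQ1 and 2 with IL-10.

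The mean of the 8 standardized promoter profiles (log2 scale) over the 18 libraries was compared with the promoter peaks of 13528 other genes, as a description. Each member's own correlation with this mean was 0.983 for Irgm1, 0.975 for Igtp, 0.954 for Gbp5, 0.949 for Irgm2, 0.945 for Gbp2, 0.938 for Gbp3, 0.851 for Gbp7 and 0.678 for Iigp1, the member whose promoter fell most with either agent. Each member is itself part of the mean, which raises its value, so these values are not comparable with those of other genes. The most similar other genes were Bco2 (r = 0.979), Mlkl, the executor of necroptosis (0.978), BC023719 (0.978), 5033414D02Rik (0.977), the ADP-ribosyltransferase Parp10 (0.977), H2-T24 (0.977), Bcl6b (0.975) and Parp14 (0.974). Their LPS log2 fold-changes were 1.61, 1.53, 0.94, 1.77, 1.55, 1.08, 0.88 and 1.37. The 18 points share 6 conditions and their library scaling, so no test was attached.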

How the data were processed

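ATAC-seq of 18 libraries was used, 3 for each of 6 groups taken from the sample labels. Read pairs were aligned to mm9 by the authors (Bowtie2, run by PEPATAC), those that mapped uniquely were kept, MACS2 peaks of single libraries were merged, and the reads of each library in the merged peaks were counted. The deposited values are raw counts per peak, not normalized and not pooled; 6 columns of the union table match no described sample and were not used. The authors' promoter class covers 1000 bp before to 100 bp after a start (ChIPseeker). Counting covers peaks called in these libraries, so a region closed in all of them is not seen.

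Members and gene lists were chosen with earlier results of these data known, and 1 gene of the interferon signalling list is not reported here. The test was that of edgeR 4.0.16 under R 4.3.3 on the counts (filterByExpr, TMM, 1 quasi-likelihood fit of all groups, Benjamini-Hochberg adjustment over 194230 peaks, 6 comparisons between groups and 2 interactions). The standard error (SE) of a log2 fold-change was its size divided by the square root of the quasi-likelihood F statistic. Normalized counts are counts divided by the effective library size and multiplied by its geometric mean over libraries. Peaks named in the text were the promoter peak of each gene, the 3 largest rises with LPS per locus, and the 3 largest falls and 2 largest rises with each agent, at a mean of at least 50 counts over all libraries, past the threshold and in 1 direction in all 3 pairs. Same-numbered libraries come from the same mouse by the series description. Their deviations from the group means over all peaks had a mean correlation of 0.00573 over 45 same-numbered pairs and -0.00286 over 90 others. The main fit had no term for the mouse and treated libraries of the same mouse as independent. Its p-values measure the spread among the libraries of a group, in which mouse, culture, library and lane are mixed. On simulated counts for LPS against unstimulated cells the fit recovered 179 of 200 peaks (89.5%) with a simulated log2 change of 1.5 and called 11 unchanged ones among 193359 peaks. The simulated peaks shared the same spread, no other peak changed, and the changes were set in peaks above a minimum count without LPS. The recovery thus does not cover peaks nearly closed in unstimulated cells.

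Alternatives were DESeq2 1.42.0 and its size factors, total counts, loess offsets (span 0.3), no count filter or 10 counts in every library, the replicate block, the lane as a term of the model, a fit of just the compared groups, an FDR of 0.01, the gene body alone or 50 kb on both sides as the window, and each replicate left out. Counts in peaks give no share of reads outside peaks, and their depth limits closed peaks most.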

Additional observations from a re-analysis of the deposited data

Results flagged for a closer look

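At 18 of the named peaks the response to LPS differed between treated and untreated cells by the interaction test of edgeR (adjusted p below the threshold of 0.05 and an absolute log2 value above 0.5), and all 24 such values were below 0. Calls below 0 outnumbered those above 0 at promoters in general, where 11.2% of all promoter peaks were lower and 0.614% higher for (+)-JQ1 and 16.9% and 1.40% for IL-10, and the named peaks were picked in part as the largest rises with LPS and the largest falls with an agent, so nothing is read from their sign. A negative value means that LPS raised the peak less in treated cells, or that treatment had raised it before LPS. The explanations were not tested.

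At promoters, the interaction of LPS and (+)-JQ1 was -0.90 for Irgm1, -0.63 for Igtp, -1.13 for Gbp7, -0.67 for Gbp3 and -0.65 for Gbp2. That of LPS and IL-10 was -0.77 for Irgm1, -0.62 for Irgm2, -1.09 for Gbp5, -1.13 for Gbp7, -0.98 for Gbp3 and -1.15 for Gbp2. With the replicate block the (+)-JQ1 values of Igtp (-0.63, adjusted p = 0.058) and Gbp2 (-0.65, adjusted p = 0.051) were no longer DARs. Under loess offsets the promoter values were no DARs for (+)-JQ1 at Irgm1 (-0.35), Igtp (-0.28), Gbp3 (-0.23) and Gbp2 (-0.13) and for IL-10 at Irgm1 (-0.15) and Irgm2 (-0.11). All of these values share the unstimulated libraries, of which replicates 1 and 2 had the highest scaling factors (1.24 and 1.15).

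At distal peaks of the IRG loci and the internal Iigp1 peak, the interaction of LPS and (+)-JQ1 was -1.73 at 6.0 kb before Igtp, -1.01 at 4.7 kb before Irgm2, -1.80 at 17.5 kb and -1.05 at 5.8 kb after the Iigp1 start, -1.51 at 10.2 kb after and -0.90 at 10.8 kb before the Irgm1 start. That of LPS and IL-10 was -1.12 at 5.8 kb after the Iigp1 start and -0.65 at 6.9 kb after the Irgm1 start. The latter was no DAR with the replicate block (-0.65, adjusted p = 0.054), in DESeq2 (-0.67), with total counts (-0.37) or under loess offsets (-0.29). Nor was it one with 10 counts in every library (-0.55), with only the groups compared (-0.62) or without replicate 2 (-0.57) or 3 (-0.45). With total counts the (+)-JQ1 value 17.5 kb after the Iigp1 start (-1.52) was no DAR. Nor were those 10.2 kb after (-1.24) and 10.8 kb before (-0.62) the Irgm1 start.

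At the Gbp cluster, the interaction of LPS and IL-10 was -1.36 at 5.7 kb and -2.41 at 8.8 kb before Gbp7, -1.50 at 19.0 kb after and -1.79 at 29.8 kb before the Gbp2 start. That of LPS and (+)-JQ1 was -1.21 at 8.8 kb before Gbp7 and was no DAR without any one of the 3 replicates (-0.74 to -1.50). Of the 12 (+)-JQ1 values of all these peaks 11 were no DARs without replicate 2 and 9 without replicate 1, and of the 12 IL-10 values 6 and 2. With total counts 7 of the (+)-JQ1 and 2 of the IL-10 values were no DARs, and under loess offsets 6 and 3.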

How the results depend on the processing

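Numbers of members rose or fell by less than 1.5 times in 196 of 240 alternatives of 16 counts. Among these are counts of 0 that stayed 0, such as members lower with LPS or higher with an agent under LPS. For single named peaks, 1292 of 1421 alternatives of 120 values kept direction and side of the threshold, 121 lost the call, 6 gained it and 2 changed sign, both under loess offsets (the Irgm2 promoter with (+)-JQ1 alone at -0.00 and the Gbp3 promoter with LPS and (+)-JQ1 at -0.03). The replicate block moved no count of members by 1.5 times (45 and 57 members lower with (+)-JQ1 and IL-10 under LPS) and changed no call of a named peak other than those given above.

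With the gene body alone as the window fewer peaks were counted, and 50 members were higher with LPS, 18 and 33 lower with (+)-JQ1 and IL-10 under LPS, 1 lower in the direct comparison, 11 and 10 lower and 4 higher without LPS (lower with (+)-JQ1, lower and higher with IL-10), and 8 and 12 lower by the interactions. With 50 kb 9 rose with (+)-JQ1 alone. With total counts (+)-JQ1 alone raised 2 and lowered 41 members, IL-10 alone raised 1 and lowered 31, and the (+)-JQ1 interaction was higher for 3 and lower for 8. With loess offsets (+)-JQ1 alone raised 0 and lowered 9, IL-10 alone raised 1, and the (+)-JQ1 interaction was lower for 9. With 10 counts in every library (+)-JQ1 alone raised 3 and IL-10 alone lowered 11. (+)-JQ1 alone lowered 7 in DESeq2 and 7 with only the groups compared. At an FDR of 0.01 both agents alone lowered 6 and the (+)-JQ1 interaction lowered 8. Apart from the window and the FDR, the cause of these changes was not tested.

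Leaving out each replicate in turn gave 85 to 95 members higher with LPS, 27 to 46 lower with (+)-JQ1 and 40 to 56 with IL-10 under LPS. It gave 12 to 15 higher and 5 to 7 lower in the direct comparison, 3 to 10 higher and 1 to 14 lower with (+)-JQ1 alone, 1 to 7 higher and 2 to 13 lower with IL-10 alone, and 0 to 1 higher and 1 to 16 lower by the (+)-JQ1 interaction and 11 to 22 lower by that of IL-10. Low counts limit the peaks that are closed without LPS, where fitted fold-changes rest on few reads.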

Other observations

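Among the other promoters examined, that of Sqstm1, which encodes the autophagy receptor p62, was chosen after its values were seen. With LPS its log2 fold-change was 0.03, and it was 1.16 higher in LPS with (+)-JQ1 and 0.57 lower in LPS with IL-10 than in LPS, with mean normalized counts of 279, 631 and 189. It was the 1 promoter of its list that was higher with (+)-JQ1 under LPS. The interferon signalling promoters that were lower with IL-10 under LPS were those of Irf1 (-0.64) and Ifnb1 (-0.55), and their values with (+)-JQ1 were -0.21 and -0.42.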
